A study of Macaca mulatta with 9 samples.

Results

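The comparison set 6 pools of ovarian follicles from rhesus macaques on a Western-style diet against 3 pools from females on a standard diet, and asked which transcript levels differed on the diet whether or not testosterone was given. The diet side was made of all 6 arrays whose labels name the Western-style diet, 3 without added hormone (WSD) and 3 with chronically raised androgen (WSD+T), and the control side of the 3 arrays labelled as normal diet. These are 9 of the 9 arrays in the series. All females were young adults sampled in the early follicular phase, at or near menses. Each array carried the RNA of small antral follicles (SAFs), a few from 1 ovary pooled together, freed of stroma with needles and lysed with their granulosa cells, follicle wall and cumulus-oocyte complex. The standard-diet arrays are the only control, and no array held testosterone without the diet, so these samples cannot give the effect of testosterone alone. Because whole follicles were lysed, fewer cells of a type and less RNA per cell cannot be told apart in any result here.

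A small antral follicle grows by division of its granulosa cells, which line the fluid-filled antrum and surround the oocyte. Granulosa cells make anti-Müllerian hormone, inhibins and activins, and send hedgehog ligand to the surrounding theca, whose cells take up cholesterol and make androgen that the granulosa cells aromatise to oestrogen. At the start of the follicular phase a group of such follicles is under way, and those that do not go on to ovulate are lost by atresia.

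Of 26383 probe sets tested, 1010 (3.83%) passed an adjusted p of 0.05 (limma, Benjamini-Hochberg) between the diet and control sides. With all 9 arrays, lower signals on the diet were the more frequent direction, with 715 probe sets lower (2.71%) and 295 higher (1.12%). Counted as genes, 1 probe set each, 318 of 10002 were lower (3.18%) and 128 higher (1.28%), and 186 of the lower and 77 of the higher genes differed by 2-fold or more. The fit gave the 6 diet arrays 1 common mean, so that any difference between WSD and WSD+T counted as spread. All 318 lower genes and 127 of the 128 higher genes had every diet array on one side of every control array, against 1124 (11.2%) and 539 (5.39%) of all genes tested. A call made on these same values favours such a separation, so it describes the genes called and adds no support. Fold changes are on the log2(signal + 16) scale throughout, which understates those of genes with low signals.

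The arrays were not equally alike. Signals of WSD+T replicates 1 and 3 correlated with r = 0.993 across probe sets, whereas WSD replicates 2 and 3 correlated with r = 0.862, and the mean variance within a group was 0.152 for control, 0.330 for WSD and 0.0411 for WSD+T. The number of calls depended on single arrays: 180 without control replicate 2, 205 without control replicate 3, 418 without control replicate 1, 455 and 379 without WSD+T replicates 1 and 3, and 2740 without WSD replicate 3, of which 1006 were among the original 1010. Leaving out a control array also leaves 2 controls, which lowers the power of the test. Leaving out WSD replicates 2 and 3 together gave 2555 calls, 1418 higher and 1137 lower. Higher signals were also the more frequent direction without WSD replicate 3 alone, with 1544 probe sets higher and 1196 lower.

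The 446 genes called were moved by similar amounts in both diet groups. Their median absolute change from control was 1.08 on the log2 scale, and their median absolute difference between WSD+T and WSD was 0.21. For 358 of them (80.3%) the 95% interval of the WSD+T minus WSD difference lay within 2-fold in either direction, against 7073 (70.7%) of all genes tested. The change from control was larger in WSD for 299 genes and larger in WSD+T for 147. Between the diet groups 789 probe sets (2.99%) and 285 genes (2.85%) were called, and 16 of these probe sets and 8 of these genes were also called against control. The rule that gave both diet groups 1 mean favours genes that moved alike, so these figures describe the genes called and are not a test of likeness.

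**Figure D1:**
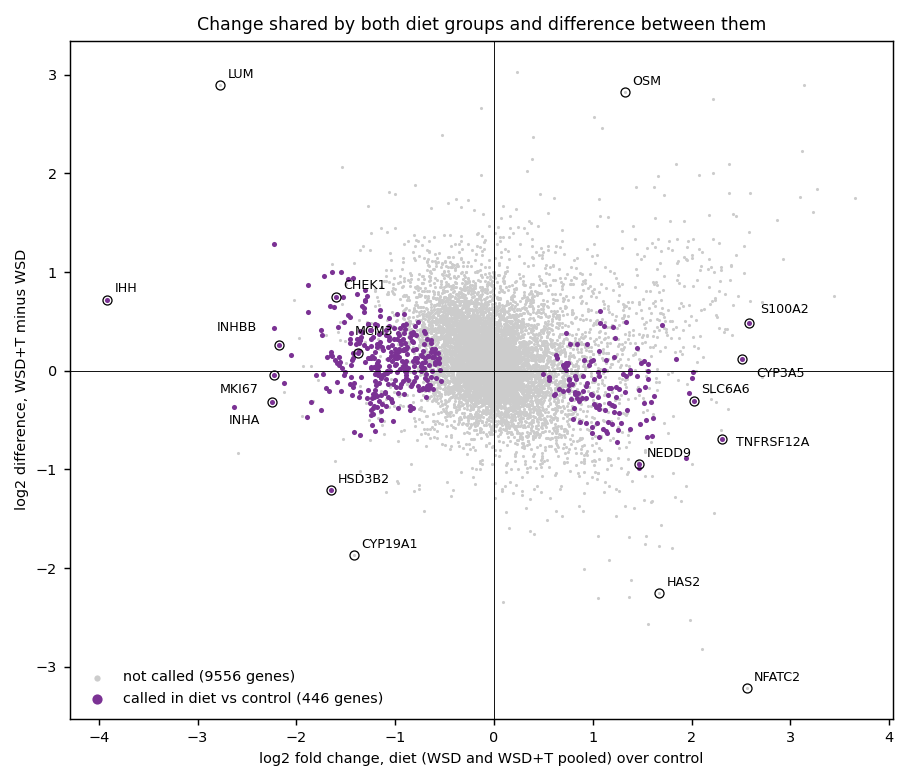
Change on the diet and difference between the diet groups, 1 point per gene tested (10002 genes); the horizontal axis is the log2 difference of the 6 diet arrays from the 3 control arrays, and the vertical axis the log2 difference of WSD+T from WSD. The 318 lower and 128 higher genes spread along the horizontal axis, and most of them lie close to 0 on the vertical axis.

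Genes of cell division fell together on the diet, in lists chosen with earlier results of these data known. Of 21 DNA replication genes tested, 14 fell and none rose, with a median change of -0.91 on the log2 scale, and of 22 mitosis and spindle genes 15 fell and none rose, with a median of -1.07. The median of all genes tested was -0.04, and 3.18% of them were called lower. All 43 genes of both lists had a negative change, and the lists' median differences between WSD+T and WSD were 0.08 and -0.04. Summed over the replication list, signals lay between 17485 and 19116 in the control arrays, between 10195 and 11743 in WSD and between 10267 and 11892 in WSD+T.

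The proliferation marker MKI67 gave signals of 444, 736 and 438 in the control arrays, 122, 78.1 and 108 in WSD and 92.01, 111 and 91.3 in WSD+T. Every diet array stood below every control array, by more than the control arrays differed among themselves. MKI67 fell by 2.22 on the log2 scale (SE 0.20, adjusted p = 0.00353), a 4.68-fold difference, with -2.20 in WSD and -2.25 in WSD+T, and it kept its call in each fit that left out 1 array. FOXM1, the transcription factor that switches on genes of mitotic entry, read 684, 738 and 584 in the control arrays, 287, 217 and 259 in WSD and 193, 277 and 209.8 in WSD+T. It fell by 1.42 (SE 0.16, adjusted p = 0.00442). TPX2, a spindle assembly factor that activates Aurora A, was measured at 741, 942 and 755 in the control arrays, 326, 227 and 278 in WSD and 269, 281 and 252 in WSD+T. It fell by 1.52 (SE 0.15, adjusted p = 0.00353). FOXM1 and TPX2 both left a wide gap between the lowest control array and the highest diet array, and both kept their call in all 9 fits that left out 1 array.

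Several genes for the licensing and firing of replication origins fell. MCM3, a subunit of the replicative helicase, had signals of 1602, 1638 and 1471 in the control arrays, 485, 578 and 625 in WSD and 568, 725 and 620.5 in WSD+T, a fall of 1.37 (SE 0.14, adjusted p = 0.00353). Its partner MCM2 had a mean of 730.2 ± 12.8 (SD, n = 3) in the control arrays and 310.2 ± 41.7 (SD, n = 6) on the diet and fell by 1.20 (SE 0.14, adjusted p = 0.00501). CDC45, which joins the helicase when an origin fires, had means of 297 ± 11.7 and 123 ± 11.9 and fell by 1.18 (SE 0.12, adjusted p = 0.00353). CDC6, the loader of the helicase, fell by 1.38 (SE 0.17, adjusted p = 0.00544). All 4 GINS subunits of the active helicase were called, GINS1 with 1.04 lower (SE 0.16, adjusted p = 0.0108) and GINS4 with 1.09 lower (SE 0.16, adjusted p = 0.00993). The primase-polymerase subunit POLA2 fell by 1.00 (SE 0.15, adjusted p = 0.0106). PCNA, the sliding clamp, changed by -0.40 (SE 0.12, adjusted p = 0.0888), MCM10 by -1.20 (SE 0.30, adjusted p = 0.0551) and the origin recognition subunit ORC1 by -0.61 (SE 0.18, adjusted p = 0.0819), and these did not pass the test.

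In mitosis the calls ran from cyclins to the spindle. Cyclin B1 (CCNB1), which drives entry into mitosis, had means of 2298 ± 227 in the control arrays and 1128 ± 213 on the diet and fell by 1.03 (SE 0.18, adjusted p = 0.0164). Topoisomerase II alpha (TOP2A), which untangles sister chromatids, had means of 2389.7 ± 181 and 1093 ± 247 and fell by 1.14 (SE 0.20, adjusted p = 0.0171). ASPM, a spindle pole protein, fell by 1.57 (SE 0.24, adjusted p = 0.0108), and both of its other tested probe sets were called lower too. The mitotic kinase AURKB fell by 1.23 (SE 0.24, adjusted p = 0.0236), with -0.96 in WSD and -1.51 in WSD+T. Its relative AURKA changed by -0.26 (SE 0.31, adjusted p = 0.646) and the mitotic kinase CDK1 by -0.36 (SE 0.42, adjusted p = 0.64), and neither passed the test. Genes of these lists that are named beyond MCM3, CDC45, MCM2, MKI67, TPX2 and FOXM1 were picked after their values were seen.

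Leaving out single control arrays removed many of these calls. Of the 29 genes called in both lists, 17 passed without control replicate 1, 8 without control replicate 2 and 12 without control replicate 3, and all 29 without WSD replicate 3. Without WSD+T replicates 1 and 3 the numbers were 21 and 18. The sign stayed negative for all 29 in each of these 9 fits. With the mean log2 level of myeloid markers as a covariate, an alternative chosen after seeing the data, 10 genes of each list were called lower.

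**Figure D2:**
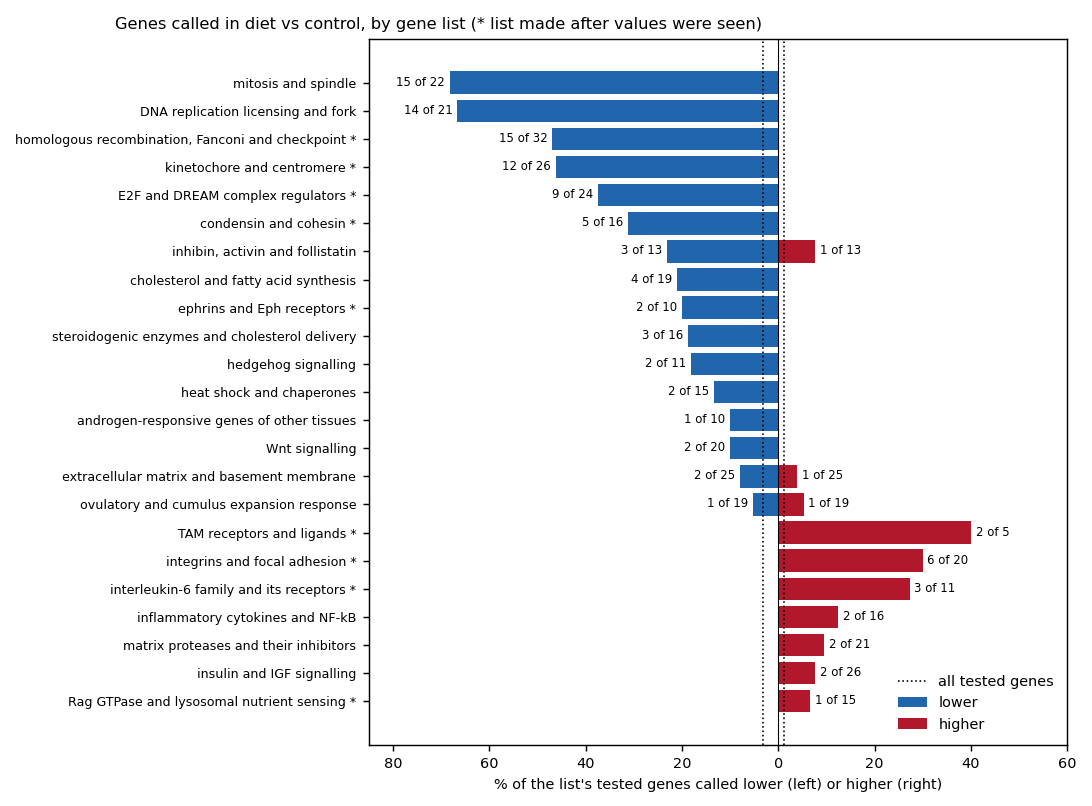
Share of each list's tested genes called lower on the diet (bars to the left) or higher (bars to the right), in percent, for the lists with any call; numbers beside the bars give the genes called of those tested, and dotted lines mark the shares among all 10002 genes (3.18% lower and 1.28% higher). The mitosis list (15 of 22) and the replication list (14 of 21) have the longest bars to the left, and an asterisk marks lists made after the values were seen. All lists, with or without an asterisk, were chosen with earlier results of these data known.

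Lists put together after the values had been seen extend the description to other steps of the cell cycle, and they carry no weight as evidence beyond their counts. The replication and mitosis lists above were chosen with earlier results of these data known, so their counts are a description too. Among 32 genes of homologous recombination, the Fanconi pathway and the DNA damage checkpoint, 15 fell and none rose (median -0.84). EXO1, an exonuclease that resects DNA ends, showed 381, 262 and 326 in the control arrays, 50.8, 56.6 and 174 in WSD and 86.2, 82.6 and 67.8 in WSD+T. It fell by 1.81 (SE 0.30, adjusted p = 0.0157), with WSD replicate 3 the highest of the diet arrays. EME1, a partner of the junction-cutting nuclease MUS81, had 230.3, 301 and 185 in the control arrays, 53.97, 68.4 and 56.6 in WSD and 60.9, 80.5 and 65.2 in WSD+T, with no overlap, and fell by 1.65 (SE 0.17, adjusted p = 0.00353), whereas MUS81 itself changed by 0.29 (SE 0.15, adjusted p = 0.267). TIMELESS, which steadies the replication fork, had means of 337 ± 14.03 and 107 ± 18.9 and fell by 1.54 (SE 0.16, adjusted p = 0.00353). BRCA1, which guides DNA end repair, fell by 0.87 (SE 0.15, adjusted p = 0.0161), its partner BARD1 by 0.91 (SE 0.16, adjusted p = 0.0179) and the helicase BRIP1 by 1.59 (SE 0.29, adjusted p = 0.0207). FANCD2 fell by 1.00 (SE 0.17, adjusted p = 0.0151) and RAD54L, a motor of strand exchange, by 1.35 (SE 0.21, adjusted p = 0.0128).

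At the kinetochore, the protein plate that holds chromosomes to the spindle, 12 of 26 genes fell and none rose (median -0.91). OIP5, which helps load the centromeric histone, had 546, 601 and 496 in the control arrays, 142, 136 and 170.1 in WSD and 164, 327 and 188 in WSD+T, and WSD+T replicate 2 was the highest of the diet arrays. It fell by 1.52 (SE 0.24, adjusted p = 0.0131). CENPM fell by 1.18 (SE 0.14, adjusted p = 0.00544), SPC25 by 1.26 (SE 0.18, adjusted p = 0.00997), the checkpoint protein KNTC1 by 1.34 (SE 0.22, adjusted p = 0.0143) and the Aurora B partner CDCA8 by 1.35 (SE 0.19, adjusted p = 0.00902). Of 16 condensin and cohesin genes 5 fell (median -0.36). The condensin subunits SMC2, SMC4 and NCAPG fell by 1.08, 0.89 and 1.16 (adjusted p = 0.00544, 0.0108 and 0.0131), and the cohesin acetyltransferase ESCO2 by 1.34 (SE 0.24, adjusted p = 0.0187). The cohesin ring subunit SMC3 changed by -0.32 (SE 0.18, adjusted p = 0.297) and did not pass the test.

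The regulators above these genes split. Among 24 E2F, pocket protein and cyclin-dependent kinase genes 9 fell and none rose (median -0.37). E2F2, an activating E2F, read 551, 607 and 389 in the control arrays, 124, 80.9 and 257 in WSD and 137, 173 and 155 in WSD+T and fell by 1.69 (SE 0.29, adjusted p = 0.0167). E2F1 fell by 1.06 (SE 0.22, adjusted p = 0.0333), the atypical repressors E2F7 and E2F8 by 0.99 and 1.00 (adjusted p = 0.0128 and 0.0234), the B-MYB gene MYBL2 by 1.16 (SE 0.19, adjusted p = 0.0131) and the pocket protein RBL1 by 0.93 (SE 0.16, adjusted p = 0.0177). CDK2 fell by 0.67 (SE 0.15, adjusted p = 0.042) in this probe set, while its other tested probe set had the opposite sign. Cyclin D1 (CCND1, 0.33, adjusted p = 0.454) and its kinase CDK4 (-0.18, adjusted p = 0.454) did not pass the test. Most of the genes named in these lists lost their call without control replicate 2 or 3, with adjusted p of 0.0796 and 0.0592 for BRCA1 and 0.1 and 0.132 for E2F1. EME1, TIMELESS, CDC6, CENPM and SMC2 were called in all 9 fits that left out 1 array.

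**Figure D3:**
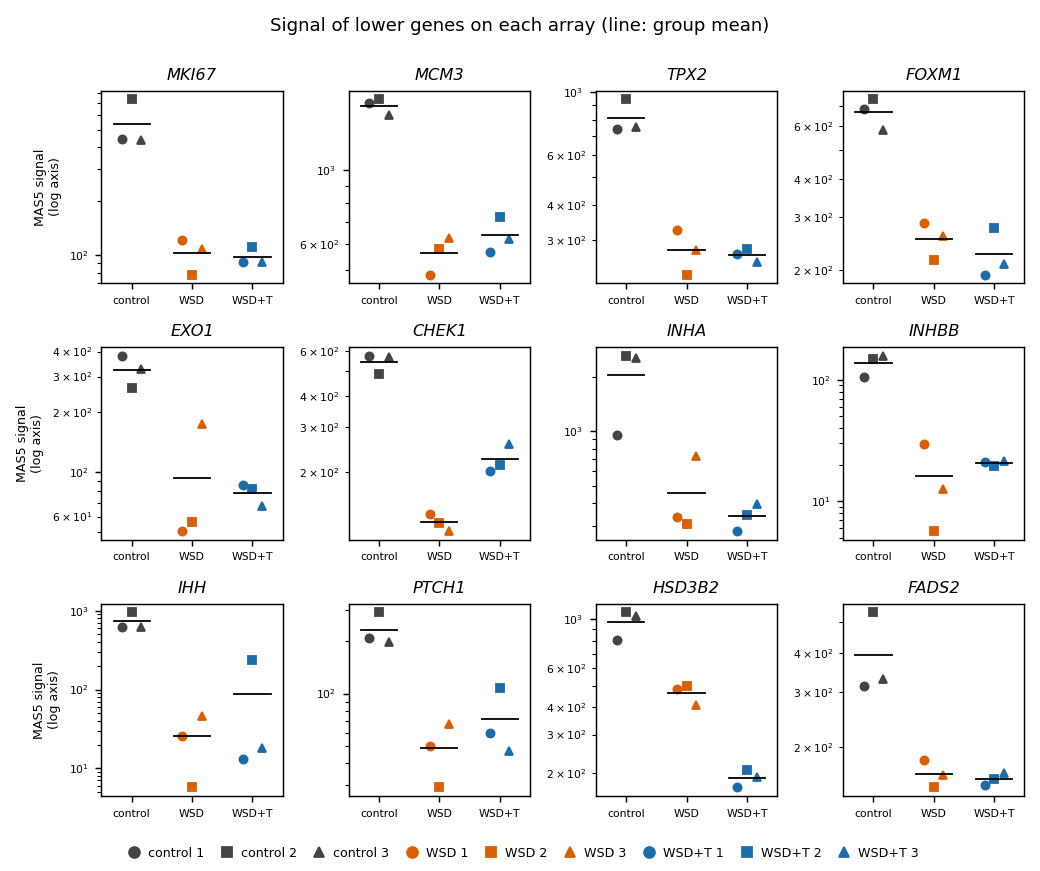
Signals of 12 genes lower on the diet, 1 point per array on a log axis in 3 columns (control, WSD, WSD+T), with the group mean as a line. For each gene the 6 diet arrays lie below the 3 control arrays, and for HSD3B2 the WSD+T arrays (172 to 207) lie below the WSD arrays (408 to 498).

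The inhibin subunits INHA and INHBB fell. Inhibins and activins are dimers of shared subunits: the alpha subunit (INHA) joins a beta subunit (INHBA or INHBB) to form an inhibin, which holds back pituitary FSH, while beta subunits paired with each other form activins. INHA had 957, 2605 and 2535 in the control arrays, 336, 306 and 728 in WSD and 280.1, 343 and 393 in WSD+T. The highest diet array, WSD replicate 3, stood below the lowest control array, replicate 1, and INHA fell by 2.25 (SE 0.37, adjusted p = 0.0146), a 4.76-fold difference, with -2.09 in WSD and -2.41 in WSD+T. INHBB had 106, 148 and 158 in the control arrays, 29.9, 5.70 and 12.7 in WSD and 21.03, 19.5 and 21.5 in WSD+T, so that most diet arrays were near or under the filter level of 21.2. It was thus tested largely through its control arrays, and the size of its fall of 2.18 (SE 0.23, adjusted p = 0.00353) rests on signals near the floor. INHBA had 1417, 1453 and 1353 in the control arrays, 2113, 2186 and 1760.3 in WSD and 1661, 1401 and 1659.6 in WSD+T, with overlapping groups, and its change of 0.33 did not pass the test (SE 0.16, adjusted p = 0.247). INHA lost its call without control replicate 2 (adjusted p = 0.0739) or 3 (0.0768), and INHBB kept its call in all 9 such fits.

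The binders and signal carriers of the pathway did not move as 1 group. Follistatin-like FSTL3, a secreted binder of activin, rose from 45.8 ± 10.03 to 113 ± 27.4, by 1.05 (SE 0.19, adjusted p = 0.0207), and lost its call without control replicate 2, control replicate 3 or WSD+T replicate 3 (adjusted p = 0.0985, 0.0831 and 0.0532). Follistatin itself (FST) had 2579, 2535 and 3053 in the control arrays, 1936, 713 and 2299 in WSD and 1416, 1877 and 1291 in WSD+T. All 6 diet arrays were below the control arrays, with WSD replicate 2 the lowest, and its change of -0.86 did not pass (SE 0.32, adjusted p = 0.153). SMAD4, the partner of all receptor-activated SMADs, fell by 0.60 (SE 0.14, adjusted p = 0.0445), a call lost without any 1 control array, WSD replicate 1 or WSD+T replicate 1 or 3 (adjusted p up to 0.163). Over the 13 genes of the list 3 fell, 1 rose and the median was -0.01.

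Anti-Müllerian hormone (AMH), which restrains the recruitment and FSH response of follicles, had 383, 226 and 336 in the control arrays, 214, 81.6 and 185 in WSD and 83.7, 159.6 and 118 in WSD+T. All diet arrays were below the control arrays, yet the change of -1.13 missed the threshold (SE 0.31, adjusted p = 0.0726), and it passed without WSD replicate 3 (adjusted p = 0.0395) and with array weights per group (0.0301). Its receptor AMHR2 had 122, 134 and 144 in the control arrays, 61.3, 41.1 and 131 in WSD and 168, 161 and 144 in WSD+T. WSD replicates 1 and 2 were low and the WSD+T arrays were at or above the control arrays, and the pooled change was -0.28 (SE 0.37, adjusted p = 0.683). None of the 14 AMH, BMP and GDF signalling genes tested was called, and 3 had an unadjusted p under 0.05, as had 6124 of all 26383 probe sets.

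The defining markers of a follicle were present in the control arrays, with mean signals of 2032 ± 932 (SD, n = 3) for INHA of granulosa cells, 657 ± 127 for CYP17A1 of the theca and 236 ± 75.6 for ZP3 of the oocyte. On the diet, granulosa markers as a whole leaned lower. Of 13 tested, 2 fell (INHA and INHBB), 11 had a negative sign and the median was -0.68. Summed signals of the 13 lay between 18709 and 22655 in the control arrays, 11515 and 18229 in WSD and 14411 and 16707 in WSD+T, so that every diet array lay below the control arrays. The part of granulosa cell number in the changes of single granulosa genes was not tested. No named probe set was found for FSHR, the receptor through which granulosa cells answer FSH, for the receptors LHCGR and INSR, for the side-chain cleavage enzyme CYP11A1 or for the oocyte factor GDF9, and ESR1 was below the filter.

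Hedgehog ligand and its target fell. Indian hedgehog (IHH), sent by granulosa cells to the theca, read 628, 956 and 627 in the control arrays, 25.4, 5.70 and 45.6 in WSD and 12.99, 234 and 18.3 in WSD+T. WSD+T replicate 2 was by far the highest diet array and still below the lowest control array. IHH fell by 3.92 (SE 0.65, adjusted p = 0.0152), a 15.1-fold difference on this scale, and its other tested probe set was called lower too. PTCH1, the hedgehog receptor that is itself a target of the pathway, had 208, 290.4 and 197 in the control arrays, 50.05, 29.2 and 67.4 in WSD and 59.96, 108 and 46.8 in WSD+T. Here too WSD+T replicate 2 was the highest on the diet, and PTCH1 fell by 1.75 (SE 0.28, adjusted p = 0.0134).

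Other readouts of the pathway had the same sign with less support. GLI1, a transcription factor induced by the signal, had 61.6, 114 and 87.00 in the control arrays, 21.9, 22.1 and 50.04 in WSD and 17.6, 67.6 and 27.6 in WSD+T. WSD+T replicate 2 overlapped the control arrays, and the change of -1.09 did not pass (SE 0.31, adjusted p = 0.0786). HHIP, a decoy receptor and target gene, changed by -1.49 (SE 0.36, adjusted p = 0.0523) with control replicate 2 far above the other control arrays (594 against 192 and 182), and it passed without WSD replicate 3 (adjusted p = 0.0332). In all, 2 of 11 hedgehog genes fell and 9 had a negative sign (median -0.37). IHH and PTCH1 both lost their call without control replicate 2 (0.0744 and 0.0707) or 3 (0.0657 and 0.0533).

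Of 16 steroidogenic genes tested, 3 fell and none rose. HSD3B2, which turns pregnenolone into progesterone and DHEA into androstenedione, had 810.1, 1077 and 1040.1 in the control arrays, 482, 498 and 408 in WSD and 172, 207 and 192 in WSD+T. The 3 groups did not overlap, with control highest and WSD+T lowest. HSD3B2 fell by 1.65 (SE 0.36, adjusted p = 0.0386), with -1.04 in WSD and -2.26 in WSD+T, and the difference of WSD+T from WSD was -1.21 (95% interval -1.57 to -0.85, adjusted p = 0.0182). CYP17A1, the androgen-making enzyme of the theca, read 559, 612 and 800.1 in the control arrays, 145, 295 and 168 in WSD and 383, 291 and 347 in WSD+T. It fell by 1.29 (SE 0.30, adjusted p = 0.0462), with -1.67 in WSD and -0.91 in WSD+T, and the difference between these did not pass (adjusted p = 0.145). HSD17B8, an oxidising hydroxysteroid dehydrogenase that also serves mitochondrial fatty acid synthesis, fell by 0.56 (SE 0.13, adjusted p = 0.0495). HSD3B2 and CYP17A1 lost their call without any 1 control array, with adjusted p up to 0.149 without control replicate 2 and 0.182 without control replicate 3, and HSD17B8 did so too (up to 0.177 without control replicate 2). Leaving out any 1 of the WSD+T arrays also removed all 3 calls (up to 0.0781, 0.0696 and 0.104), as did WSD replicate 1 or 2 for CYP17A1 (0.0576 and 0.0572) and HSD17B8 (0.0686 and 0.0594).

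Markers of the theca and steroidogenic stroma also leaned lower. Of 10 tested, CYP17A1 and PTCH1 fell, 7 had a negative sign and the median was -0.28. Their mean log2 level, centred on 0, was 0.32 to 0.44 in the control arrays, -0.57 to -0.18 in WSD and -0.06 to 0.16 in WSD+T, without overlap between diet and control. Their summed signal overlapped, at 6701 to 7679 in control, 4962 to 7814 in WSD and 6845 to 7538 in WSD+T. The list shares CYP17A1 and STAR with the steroidogenic genes and PTCH1, GLI1, GLI2 and HHIP with the hedgehog genes, and the part of theca cell number in their changes was not tested.

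The remaining steroid genes were not called. STAR, which carries cholesterol into mitochondria, had 2788, 1853 and 2896 in the control arrays, 3081, 4082 and 2416 in WSD and 2465, 2310.3 and 2377 in WSD+T, overlapping throughout (0.15, SE 0.22, adjusted p = 0.73). Aromatase (CYP19A1) had 185, 587 and 306 in the control arrays, 524, 139 and 154 in WSD and 44.02, 38.1 and 73.9 in WSD+T. WSD replicate 1 lay within the range of the control arrays and the WSD+T arrays were the lowest, and neither the pooled change of -1.42 (SE 0.68, adjusted p = 0.24) nor the difference between the diet groups of -1.87 (95% interval -3.09 to -0.65, adjusted p = 0.0924) passed. HSD17B1, which makes oestradiol from oestrone, had 1017, 828 and 1569 in the control arrays, 589.7, 59.5 and 587 in WSD and 274, 341 and 281 in WSD+T. All diet arrays were below the control arrays, but WSD replicate 2 stood far below the rest, and the change of -1.86 did not pass (SE 0.58, adjusted p = 0.104). It passed without that array (0.0462), without WSD replicates 2 and 3 together (0.0209) and with array weights per group (0.0223).

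None of the 11 hormone receptors and steroidogenic transcription factors tested was called, and 6 had an unadjusted p under 0.05, as had 6124 of all 26383 probe sets. GATA4 changed by -0.85 (SE 0.32, adjusted p = 0.159) and NR5A2 by -0.68 (SE 0.34, adjusted p = 0.253), each with all diet arrays on one side of the control arrays and with WSD replicate 2 lowest (192 against 548 and 564 in the other WSD arrays for GATA4). GATA6 changed by -0.35 (SE 0.17, adjusted p = 0.239), NR5A1 by -0.55 (SE 0.19, adjusted p = 0.121), ESR2 by -0.43 (SE 0.25, adjusted p = 0.334) and PGR by 0.07 (SE 0.22, adjusted p = 0.873), with overlapping groups. IGF1R changed by 0.02 (SE 0.27, adjusted p = 0.97).

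Lipid synthesis enzymes tended lower, with 4 of 19 called, 15 of 19 negative and a median of -0.33. FADS2, the desaturase that starts the making of long polyunsaturated fatty acids, had 314, 538 and 329 in the control arrays, 182, 149 and 163 in WSD and 152, 158 and 165 in WSD+T. The diet arrays lay within a narrow range below every control array, and FADS2 fell by 1.17 (SE 0.18, adjusted p = 0.0106) and kept its call in all 9 fits with 1 array left out. DHCR7, the last step of cholesterol synthesis, had means of 91.03 ± 3.48 and 35.3 ± 12.9 and fell by 1.10 (SE 0.20, adjusted p = 0.0218). ACACA, which makes malonyl-CoA for fatty acid synthesis, fell by 0.99 (SE 0.19, adjusted p = 0.0244), and squalene epoxidase (SQLE), an early committed step to sterols, by 1.22 (SE 0.25, adjusted p = 0.032). The last of these passed neither without any 1 control array (up to 0.137) nor without WSD replicate 1 or any WSD+T array, and ACACA and DHCR7 lost their call without any 1 control array or WSD+T replicate 1 or 3 (up to 0.11 and 0.0939 without control replicate 2). SREBF2, the sterol-sensing transcription factor of this pathway, changed by -0.43 (SE 0.25, adjusted p = 0.315) and did not pass.

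A few matrix and guidance genes fell and 1 rose. Perlecan (HSPG2), a basement membrane proteoglycan, had 1647, 1858 and 2189 in the control arrays, 646, 721 and 655 in WSD and 875, 975 and 861 in WSD+T, and fell by 1.26 (SE 0.17, adjusted p = 0.00848). LAMA1, the laminin chain of early basement membranes, had 508, 588 and 495 in the control arrays, 161, 77.2 and 263 in WSD and 163, 169.7 and 172 in WSD+T. Every diet array was below every control array, and LAMA1 fell by 1.64 (SE 0.28, adjusted p = 0.0166). Asporin (ASPN), a small leucine-rich matrix protein, rose from 18.2 ± 5.01 to 59.3 ± 18.4, by 1.11 (SE 0.22, adjusted p = 0.028). Its control mean lay below the filter level, so ASPN was tested largely through its diet arrays. The size of its rise rests on control signals near the floor. Of 25 matrix genes tested HSPG2, LAMA1 and ASPN were the only calls, with a list median near 0. LAMA1 lost its call without any 1 control array and ASPN also without WSD+T replicate 1 or 3 (up to 0.0814 and 0.128).

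The ephrin ligand EFNB1, a membrane-bound guidance cue, read 618, 745 and 989 in the control arrays, 214, 159 and 208 in WSD and 229.7, 309.5 and 223 in WSD+T. The groups were wide apart, and EFNB1 fell by 1.74 (SE 0.21, adjusted p = 0.00524) and kept its call in all 9 fits that left out 1 array. EPHB3, a receptor for ligands of this class, had 40.5, 86.6 and 80.1 in the control arrays, 6.11, 7.59 and 2.79 in WSD and 14.8, 18.1 and 19.7 in WSD+T. All its diet arrays lay below the filter level of 21.2, so EPHB3 was tested only through its control arrays, and the size of its fall of 1.62 (SE 0.26, adjusted p = 0.0143) rests on signals near the floor. Its adjusted p was 0.0215 with no filter, and it did not reach the filter when any 1 control array was left out. These were the 2 calls among 10 ephrin and Eph genes, a list made after the values were seen. FZD4, a Wnt and norrin receptor, had 646, 836 and 1213 in the control arrays, 218, 150.0 and 234 in WSD and 431, 361 and 444 in WSD+T. It fell by 1.55 (SE 0.35, adjusted p = 0.0409), with -2.05 in WSD and -1.05 in WSD+T, and it lost its call when any 1 array other than WSD replicate 2 or 3 was left out (up to 0.168). DKK2, a secreted Wnt modulator, had 153, 173 and 271 in the control arrays, 18.8, 18.2 and 66.6 in WSD and 65.6, 65.2 and 35.2 in WSD+T and fell by 1.89 (SE 0.35, adjusted p = 0.0218), and 2 of 20 Wnt genes were called in all.

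Several further genes fell far without belonging to a list in which many moved. Endocan (ESM1), secreted by activated endothelium, had 484, 563 and 399 in the control arrays, 128, 151 and 131 in WSD and 124, 95.9 and 101 in WSD+T. Its 6 diet arrays lay close together and far below the control arrays, and it fell by 1.85 (SE 0.17, adjusted p = 0.00353), the only call among 11 endothelial markers, 8 of which had a positive sign. Inducible nitric oxide synthase (NOS2) had 212, 176 and 330.1 in the control arrays, 54.2, 6.56 and 42.6 in WSD and 43.4, 72.8 and 27.7 in WSD+T and fell by 2.23 (SE 0.39, adjusted p = 0.0172). UBE2K, a ubiquitin-conjugating enzyme, had 788, 937 and 869 in the control arrays, 277, 223 and 260.4 in WSD and 215, 297 and 232 in WSD+T, with little spread on either side, and fell by 1.73 (SE 0.14, adjusted p = 0.00353).

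The heat shock factor HSF4 had 409, 436 and 375 in the control arrays, 139, 79.7 and 144 in WSD and 83.1, 94.97 and 66.6 in WSD+T and fell by 1.89 (SE 0.23, adjusted p = 0.00518). DNAJB1, a co-chaperone of HSP70, went from 3529 ± 595 to 1524 ± 333 and fell by 1.22 (SE 0.22, adjusted p = 0.0196), and these were 2 of 15 heat shock genes called. The EGF receptor (EGFR), through which ovulatory growth factors act on granulosa cells, had 73.8, 88.9 and 49.5 in the control arrays, 16.7, 7.39 and 18.7 in WSD and 25.2, 27.9 and 23.7 in WSD+T. Its diet arrays were near the filter level, so it was tested largely through its control arrays, and it fell by 1.27 (SE 0.23, adjusted p = 0.0188).

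TRMT2B, a mitochondrial RNA methyltransferase, had 77.2, 179 and 353 in the control arrays, 21.6, 28.5 and 38.7 in WSD and 27.7, 27.7 and 21.3 in WSD+T and fell by 2.12 (SE 0.35, adjusted p = 0.0146), with control replicate 1 nearest the diet arrays. SPATA17, a calmodulin-binding protein of testis, had 63.6, 118 and 129.9 in the control arrays, 15.1, 10.3 and 6.51 in WSD and 13.7, 13.04 and 13.8 in WSD+T and fell by 2.05 (SE 0.20, adjusted p = 0.00353). All its diet arrays lay below the filter level of 21.2, so it was tested only through its control arrays, and its adjusted p was 0.00373 with no filter. PAGE1, of a cancer-testis antigen family, had 276, 297 and 183 in the control arrays, 111, 7.02 and 21.8 in WSD and 6.57, 72.8 and 9.66 in WSD+T, wide among the diet arrays, and fell by 2.64 (SE 0.56, adjusted p = 0.0357). SIDT1, a multi-pass membrane protein, had 376, 315 and 579 in the control arrays, 208, 53.2 and 157 in WSD and 85.7, 152 and 92.4 in WSD+T and fell by 1.70 (SE 0.36, adjusted p = 0.0339).

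Of the 15 lower genes ranked first by the smaller of their changes in WSD and WSD+T (IHH, PAGE1, MKI67, INHA, TRMT2B, INHBB, NOS2, SPATA17, EXO1, UBE2K, ESM1, HSF4, E2F2, SIDT1 and DKK2), 9 passed without control replicate 1, 6 without control replicate 2 and 8 without control replicate 3, and all 15 kept their sign in each such fit. MKI67, INHBB, SPATA17, UBE2K, ESM1 and HSF4 passed in all 9, though INHBB and SPATA17 reached the filter largely through their control arrays. The highest adjusted p among the 15 was 0.149, without control replicate 3.

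Myeloid cell markers varied widely among the arrays. All 11 tested of 15 macrophage and myeloid markers had a positive change (median 1.54) and none passed the test, 2 having an unadjusted p under 0.05, as had 6124 of all 26383 probe sets. Their summed signal ranged from 1692 to 8352 in the control arrays, from 672 to 19756 in WSD and from 12397 to 14203 in WSD+T, with WSD replicate 3 the lowest of all 9 arrays and WSD replicate 2 the highest. The mean log2 level of the 11, centred on 0, was 0.22, -1.61 and -1.49 in the control arrays, 0.83, 1.74 and -2.48 in WSD, and 1.04, 0.76 and 0.99 in WSD+T. Of the 4 markers not tested, ITGAM was below the filter and CD163, FCER1G and LAPTM5 had no named probe set. None of 11 oocyte markers (median 0.51), 4 lymphocyte markers (median 0.26) and 5 mesothelial markers (median -0.14) was called, with 0, 0 and 2 at an unadjusted p under 0.05. The oocyte's own BMP15, at 35.6, 10.8 and 14.2 in control, 18.1, 40.5 and 6.23 in WSD and 24.3, 35.8 and 30.9 in WSD+T, changed by 0.21 (SE 0.31, adjusted p = 0.721), and the egg coat protein ZP3 by 0.54 (SE 0.36, adjusted p = 0.389), both with overlapping groups.

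**Figure D4:**
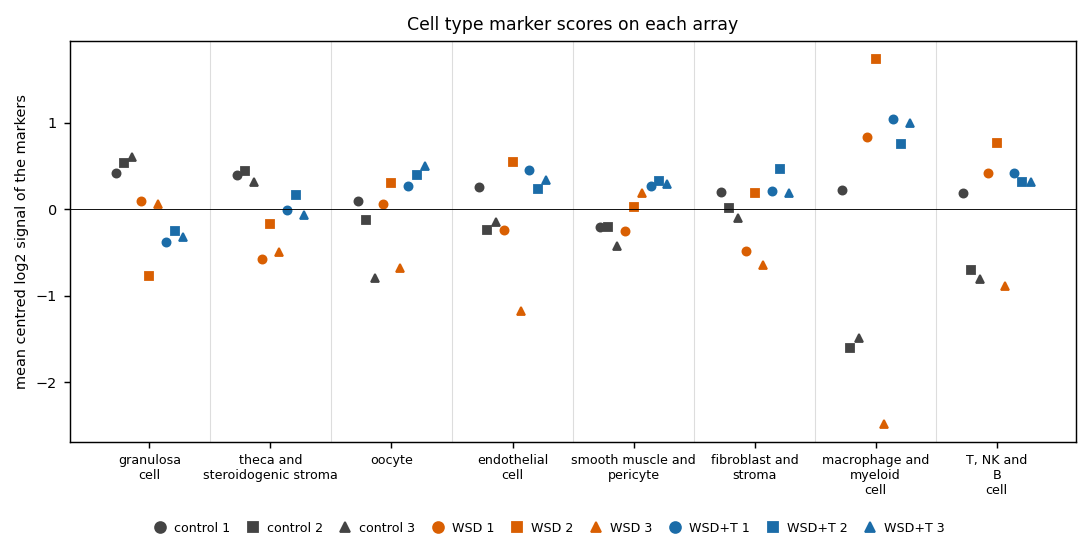
Mean log2 level of each cell type's markers, centred on 0 over the 9 arrays, 1 point per array for 8 cell types, coloured by group. The granulosa level was 0.42 to 0.60 in the control arrays and -0.78 to 0.10 on the diet, and the myeloid level of WSD replicate 3 (-2.48) was below that of every control array.

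The 15 higher genes ranked first by the smaller of their changes in WSD and WSD+T were CYP3A5, S100A2, HTR7, UPP1, TNFRSF12A, SLC6A6, RRAGD, TLR1, STEAP1, FUOM, PLSCR1, PLAUR, ITGA3, TPBG and ENPP2. WSD replicate 2 was the highest diet array for 14 of them, WSD replicate 3 the lowest for 10, and control replicate 1 the highest control array for 11, against 2556, 3019 and 3286 of all 10002 genes. Over all 128 higher genes these numbers were 69, 30 and 77, and WSD replicate 3 was the highest diet array for 31. In the myeloid level WSD replicate 2 was highest and WSD replicate 3 lowest on the diet, and control replicate 1 highest among the controls. With that level as a covariate, chosen after seeing the data, 11 of the 15 were called, as were 131 of the 295 higher probe sets. The same fit called 12 of the 15 lower genes ranked first and 389 of the 715 lower probe sets. Calls were thus lost in both directions, and the part of myeloid cells in the rises was not tested. TNFRSF12A did not follow the order of the myeloid level. Its highest arrays were WSD replicate 1 on the diet and control replicate 3 among the controls.

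CYP3A5, a cytochrome P450 that hydroxylates steroids and drugs, had 62.4, 14.1 and 16.04 in the control arrays, 184, 436 and 121 in WSD and 265, 194 and 253 in WSD+T. The lowest diet array, WSD replicate 3, was above control replicate 1 and far above the other controls, and CYP3A5 rose by 2.51 (SE 0.39, adjusted p = 0.0126), a 5.70-fold difference. Control replicates 2 and 3 lay below the filter level, so the size of this rise rests partly on signals near the floor. SLC6A6, the taurine transporter, had 525, 309 and 225 in the control arrays, 1509, 2495 and 1007 in WSD and 1486, 986 and 1370.0 in WSD+T and rose by 2.02 (SE 0.32, adjusted p = 0.0133). Uridine phosphorylase (UPP1), of pyrimidine salvage, had 103, 28.7 and 43.4 in the control arrays, 246, 449 and 161 in WSD and 257, 206 and 293 in WSD+T and rose by 2.00 (SE 0.35, adjusted p = 0.0171). In both, WSD replicate 2 was the highest diet array, and no diet array overlapped the controls.

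RRAGD, a Rag GTPase that recruits mTORC1 to lysosomes, had 173, 44.1 and 43.9 in the control arrays, 311, 785 and 182 in WSD and 379, 278 and 262 in WSD+T and rose by 1.97 (SE 0.47, adjusted p = 0.0492), close to the threshold, and it was 1 of 15 genes of its list called. The fucose mutarotase FUOM had 87.1, 112 and 77.4 in the control arrays, 315, 489.9 and 187 in WSD and 272, 366 and 244 in WSD+T and rose by 1.56 (SE 0.26, adjusted p = 0.0162). STEAP1, of a metalloreductase family, went from 60.6 ± 26.6 to 208 ± 75.03 and rose by 1.56 (SE 0.31, adjusted p = 0.0269).

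S100A2, an epithelial calcium-binding protein, had 270.1, 74.3 and 105 in the control arrays, 891, 1385 and 304 in WSD and 1084, 916 and 1061 in WSD+T. WSD replicate 3 was little above control replicate 1, and the other 5 diet arrays were several times higher. S100A2 rose by 2.58 (SE 0.48, adjusted p = 0.0211). The serotonin receptor HTR7, which raises cyclic AMP, had 37.3, 7.76 and 13.97 in the control arrays, 70.1, 218 and 110.2 in WSD and 139.6, 93.1 and 131 in WSD+T and rose by 2.02 (SE 0.33, adjusted p = 0.0144), and control replicates 2 and 3 were below the filter level of 21.2.

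TNFRSF12A, the receptor for the cytokine TWEAK, had 134, 80.1 and 298 in the control arrays, 1205, 910.4 and 977 in WSD and 607, 532 and 767 in WSD+T. Every diet array was above every control array, though the control arrays themselves ranged widely, from 80.1 to 298. TNFRSF12A rose by 2.31 (SE 0.37, adjusted p = 0.013), with 2.65 in WSD and 1.96 in WSD+T. The bacterial lipoprotein receptor TLR1, at 134, 57.4 and 81.2 in control, 309, 833 and 142 in WSD and 407, 308 and 387 in WSD+T, rose by 1.84 (SE 0.44, adjusted p = 0.0496), with WSD replicate 3 just above control replicate 1. PLSCR1, an interferon-inducible scramblase, had 173, 89.9 and 72.3 in the control arrays, 608, 766 and 496 in WSD and 349, 269 and 369.8 in WSD+T and rose by 1.94 (SE 0.34, adjusted p = 0.0189).

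ITGA3, a laminin-binding integrin chain, had 88.1, 64.4 and 58.9 in the control arrays, 171, 418 and 147 in WSD and 349, 265 and 324 in WSD+T and rose by 1.70 (SE 0.31, adjusted p = 0.0207). The urokinase receptor PLAUR had 164, 43.9 and 89.1 in the control arrays, 298, 534 and 229.8 in WSD and 323, 215 and 301 in WSD+T and rose by 1.61 (SE 0.35, adjusted p = 0.0383). ENPP2, which makes lysophosphatidic acid, had 379, 235 and 152 in the control arrays, 599.7, 1277 and 407 in WSD and 752, 634 and 774 in WSD+T and rose by 1.49 (SE 0.35, adjusted p = 0.0461), and the trophoblast glycoprotein TPBG rose by 1.51 (SE 0.26, adjusted p = 0.0163). For PLAUR, ITGA3 and ENPP2 the highest diet array was WSD replicate 2, and for all 3 the lowest control array was replicate 2 or 3.

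Among 20 integrin and focal adhesion genes, a list made after the values were seen, 6 rose and none fell (median 0.34). TES, a focal adhesion LIM protein, rose from 178 ± 30.5 to 567 ± 189, by 1.54 (SE 0.26, adjusted p = 0.0166), with WSD replicates 2 and 3 the highest. Paxillin (PXN), the focal adhesion scaffold, rose by 1.14 (SE 0.26, adjusted p = 0.0425), ITGB8 by 0.98 (SE 0.21, adjusted p = 0.0366) and caveolin CAV1 by 0.62 (SE 0.14, adjusted p = 0.0462). CAV1 had 2206, 1901 and 2354 in the control arrays, 3208, 3574 and 4003 in WSD and 2950.1, 3127 and 3043 in WSD+T, with WSD replicate 3 the highest. The integrin chain ITGB3 changed by 0.84 (SE 0.28, adjusted p = 0.117) and did not pass.

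Some cytokine receptors and receptors that clear dying cells rose. IL6R had 179, 66.6 and 67.9 in the control arrays, 369, 623 and 194 in WSD and 255, 243 and 366 in WSD+T and rose by 1.59 (SE 0.38, adjusted p = 0.0494). In the list labelled interleukin-6 family and its receptors, made after the values were seen, 3 of 11 genes rose, IL6R among them. The decoy receptor IL1R2 rose by 1.23 (SE 0.28, adjusted p = 0.0429) and IL13RA1 by 1.06 (SE 0.24, adjusted p = 0.0425). One of the 2 other probe sets of IL1R2 had the opposite sign. AXL, a receptor for the bridging protein GAS6, had 1838, 1844 and 1870.1 in the control arrays, 2809, 2667 and 2872 in WSD and 2738, 2523 and 2728 in WSD+T. Its controls agreed within a narrow range and no diet array came near them, and AXL rose by 0.55 (SE 0.11, adjusted p = 0.0295). MERTK, which marks macrophages that engulf dead cells and is also made by other cells, rose by 0.77 (SE 0.18, adjusted p = 0.047). These were 2 of 5 genes of this receptor family and its ligands, again a list made after the values were seen.

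Smaller sets had 1 or 2 rises each. RUNX1, a transcription factor induced around ovulation, had 1394, 1636 and 1415 in the control arrays, 3101, 2320.0 and 3679 in WSD and 2775, 2348 and 2646 in WSD+T and rose by 0.90 (SE 0.17, adjusted p = 0.0228), with WSD replicate 3 the highest array and WSD replicate 2 the lowest of the diet side. Over 19 ovulatory and cumulus expansion genes the median was 0.60, with RUNX1 the only rise and EGFR the only fall. The NF-kB subunit RELB rose by 1.10 (SE 0.24, adjusted p = 0.0375), and of 16 inflammatory genes 2 rose (RELB and TNFRSF12A), 15 had a positive sign and the median was 1.00. Cathepsin K (CTSK), a collagen-degrading protease, rose from 507 ± 63.3 to 1163 ± 362, by 1.13 (SE 0.23, adjusted p = 0.0322), 1 of 2 rises among 21 protease genes beside PLAUR. The adaptor SHC1 rose by 0.63 (SE 0.12, adjusted p = 0.0223) and the IGF-binding protein IGFBP6 by 1.16 (SE 0.26, adjusted p = 0.0412), the 2 rises among 26 insulin and IGF genes. Transgelin (TAGLN), of smooth muscle, rose by 0.90 (SE 0.20, adjusted p = 0.0408), the only call among 7 smooth muscle markers.

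The calls among the higher genes rested on few arrays. Without control replicate 2 only TPBG of the 15 was called, and without control replicate 3 only TNFRSF12A, and the highest adjusted p among the 15 was 0.194 without control replicate 2 and 0.195 without control replicate 3. Without WSD+T replicate 3, 8 of the 15 passed, and without WSD replicate 3 all 15 did. All 15 kept their sign in each of the 9 fits. IL6R, IL1R2, IL13RA1, TES, PXN, CAV1, AXL, MERTK, RELB, CTSK, SHC1, IGFBP6, TAGLN and RUNX1 also lost their call without control replicate 2 (adjusted p between 0.0729 for RUNX1 and 0.194 for IL6R) and without control replicate 3 (between 0.0585 for RELB and 0.192 for IL6R), and ITGB8 without control replicate 1 or 3 (0.112 and 0.15).

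**Figure D5:**
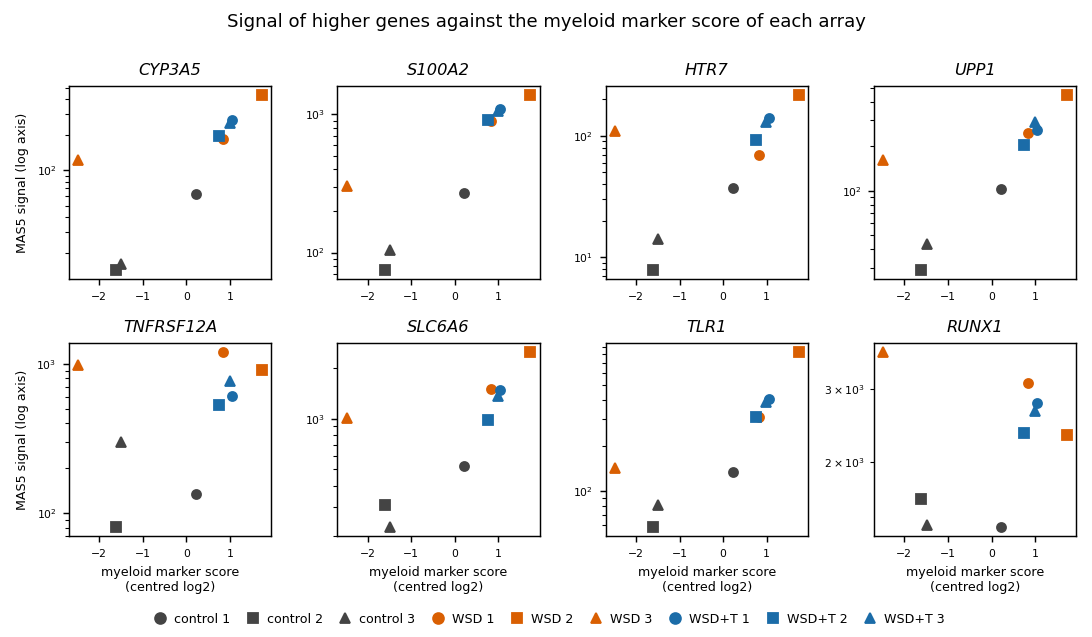
Signals of 8 genes higher on the diet (log axis) against the mean log2 level of the myeloid markers, 1 point per array, coloured by group. For CYP3A5, S100A2, UPP1 and TLR1 the WSD array with the lowest myeloid level (-2.48) is also the lowest diet array in signal, and it still lies above the controls, while for RUNX1 it is the highest.

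Some genes changed on the diet by different amounts in its groups. There were 8 genes called both against control and between WSD+T and WSD, and in each both groups lay on the same side of control. TNFAIP2, induced by tumour necrosis factor, had 897, 1004 and 999 in the control arrays, 222, 231 and 295 in WSD and 486, 518 and 465 in WSD+T. The WSD+T arrays stood between the control and WSD arrays, with -1.90 in WSD and -0.96 in WSD+T and a difference of 0.94 (95% interval 0.61 to 1.27, adjusted p = 0.0251). The checkpoint kinase CHEK1 had 574, 489 and 566 in the control arrays, 136, 126 and 117 in WSD and 202, 212 and 259 in WSD+T, again with WSD+T between the others, and a difference of 0.75 (0.42 to 1.08, adjusted p = 0.0376). MMACHC, which processes cobalamin, had 420.1, 506 and 522 in the control arrays, 128, 152 and 129 in WSD and 223, 263 and 272 in WSD+T and a difference of 0.82 (0.48 to 1.15, adjusted p = 0.0333).

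LOC720054 had 3579, 2363 and 2789 in the control arrays, 368, 511 and 291 in WSD and 923, 974 and 941 in WSD+T, and IL1RAPL1, a synaptic adhesion protein, had 494, 489 and 448 in the control arrays, 82.6, 110.0 and 154 in WSD and 244, 224 and 219 in WSD+T. The same order held for LOC720054 (-2.86 in WSD and -1.58 in WSD+T, difference 1.28, adjusted p = 0.0312) and for IL1RAPL1 (-1.94 in WSD and -1.01 in WSD+T, difference 0.93, adjusted p = 0.0451). NEDD9, a focal adhesion scaffold, had 249, 415 and 339 in the control arrays, 1534, 1316 and 1100.3 in WSD and 684, 605 and 726 in WSD+T, and FAM89A had 56.7, 32.7 and 36.7 in the control arrays, 207, 182 and 230.3 in WSD and 81.3, 87.5 and 123 in WSD+T. Both rose more in WSD than in WSD+T, with differences of -0.95 (adjusted p = 0.0495) and -0.99 (adjusted p = 0.0452). HSD3B2, described above, was the only one of the 8 further from control in WSD+T. The calls of the others against control were less firm when 1 array was left out. CHEK1 kept its call in 8 of these 9 fits, TNFAIP2 and LOC720054 in 6, and MMACHC and IL1RAPL1 in 5. NEDD9 kept it in 4 and FAM89A in 3, with the highest adjusted p (limma, 0.159) for FAM89A without control replicate 2.

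Other genes differed in level between WSD and WSD+T and were not called for the diet as a whole in the fit with 1 mean for the 6 diet arrays. Lumican (LUM), a collagen-binding proteoglycan, had 920.3, 749 and 417 in the control arrays, 22.4, 32.4 and 9.79 in WSD and 197, 431 and 191 in WSD+T, and the pooled change of -2.77 did not pass (SE 0.86, adjusted p = 0.101), while WSD+T exceeded WSD by 2.89 (95% interval 1.99 to 3.79, adjusted p = 0.0205). The calcium-responsive factor NFATC2 had 152, 76.5 and 77.7 in the control arrays, 1628, 2540.2 and 1967 in WSD and 131, 161 and 388 in WSD+T, with a difference between the diet groups of -3.21 (-4.11 to -2.31, adjusted p = 0.0166) and a pooled change of 2.56 (SE 0.94, adjusted p = 0.148) that did not pass. Oncostatin M (OSM), a cytokine of the interleukin-6 family, had 8.18, 0.879 and 4.19 in the control arrays, 5.42, 1.69 and 2.20 in WSD and 147, 88.2 and 127 in WSD+T, so that only the WSD+T arrays were above the filter level of 21.2, and the difference was 2.82 (2.35 to 3.29, adjusted p = 0.00993). OSM was thus tested only through its WSD+T arrays. In a fit of 3 group means, which leaves the difference between WSD and WSD+T out of the spread, the average of both diet groups differed from control for LUM, NFATC2 and OSM (adjusted p = 0.00561, 0.00727 and 0.00739). Such an average can differ through 1 diet group alone, so it does not show a shared change. For OSM it rests on the WSD+T arrays, as its WSD arrays lay within the control range. WSD+T replicate 1 overlapped the control arrays for NFATC2, and WSD+T replicate 2 did so for LUM. HAS2, which makes the hyaluronan of the expanding cumulus, had 145, 98.5 and 26.5 in the control arrays, 1213, 284 and 702 in WSD and 87.9, 56.4 and 307 in WSD+T, and neither its pooled change of 1.67 (SE 0.85, adjusted p = 0.268) nor its difference between the diet groups of -2.26 (-3.90 to -0.61, adjusted p = 0.124) passed.

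The number of calls between the diet groups depended on which arrays were fitted. The fit of all 3 groups called 789 probe sets, against 9 when only the 6 diet arrays were fitted and 0 when WSD+T replicates 1 and 3 were averaged into 1 sample, although 5210 and 3935 had an unadjusted p under 0.05 (limma). None was called without WSD+T replicate 1 or 2 (3782 and 3712 at that unadjusted p), 2 without WSD+T replicate 3 and 45 without WSD replicate 1. Without WSD replicates 2 and 3 the numbers were 1548 and 1488, and without control replicates 1, 2 and 3 they were 404, 494 and 479.

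Many lists had no call in either direction. By limma, none of 22 genes of fatty acid oxidation, storage and transport passed the adjusted threshold (median -0.10), and 4 had an unadjusted p under 0.05. The same held for the unfolded protein response (19 genes, median 0.22, 6 at that unadjusted p), glycolysis (16, -0.13, 2), the respiratory chain (18, -0.08, 2) and antioxidant genes (16, 0.04, 2). Cytosolic tRNA synthetases (9 genes, median -0.01, 2 at an unadjusted p under 0.05), immediate early genes (15, -0.15, 1), Notch (16, -0.02, 5), angiogenic ligands and receptors (10, 0.05, 1) and apoptosis with cell cycle inhibitors (16, 0.15, 5) also had no call. Interferon response genes had 17 of 20 positive signs and a median of 0.38 without a call, with 7 at an unadjusted p under 0.05. Of all 26383 probe sets 6124 had such an unadjusted p, so these counts are to be read against that share. The parathyroid hormone-related peptide PTHLH had 798, 858 and 778 in the control arrays, 2374, 722 and 1801 in WSD and 1500.4, 1215 and 1559.6 in WSD+T. WSD replicate 2 was below the control arrays and the other 5 diet arrays above them, and the change of 0.81 did not pass (SE 0.31, adjusted p = 0.157). PTHLH passed in 2 of 23 alternative settings, 1 of them without WSD replicate 2 (adjusted p = 0.0343), and its lowest adjusted p was 0.0308 (limma). E-selectin (SELE), of activated endothelium, had 299, 62.3 and 165 in the control arrays, 29.1, 22.96 and 11.1 in WSD and 69.1, 53.7 and 59.9 in WSD+T and changed by -1.64 (SE 0.47, adjusted p = 0.0812).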

How the data were processed

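Whole-transcriptome signals of small antral follicles were measured on 1-colour Affymetrix arrays, 1 for each of 9 samples, after amplification of total RNA by a 3' IVT method, per the labels. The authors deposited linear signal intensity values made with MAS5, per the submitters' processing notes; the version and genome build are not given in the sources used here. Every array had the same mean (200.01) after trimming 2% at either end, so the deposited values were scaled. Of 52766 probe sets that are not controls, 24956 had 1 symbol in the platform annotation, 361 several and 27449 none, and 24616 of the symbols were found by Entrez ID in a RefSeq table with none changed.

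Values were analysed as log2(signal + 16), without further normalization. Probe sets at or above the median mean (a signal of 21.2) were tested, and each gene is represented by whichever of its tested probe sets had the highest mean. Linear models were fitted with limma 3.58.1 in R 4.3.3 (lmFit, eBayes) and adjusted by Benjamini-Hochberg over all 26383 probe sets, with 1 mean for the 6 diet arrays, and with 3 group means for the difference between WSD+T and WSD. Figures used matplotlib 3.10.9 in Python 3.11.15. Scripts were tested on simulated data. Groups came from the labels, which call the samples biological replicates.

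Named by rule were 87 genes: up to 15 in each direction called without overlap, ranked by the smaller of their changes in WSD and WSD+T, up to 3 called genes per list, 31 measured of 38 fixed genes, and up to 8 called in both contrasts. A further 58 named genes were picked after their values were seen, as were 9 of 47 lists. All members and lists were chosen with earlier results of these data known. Alternatives were other pseudocounts, filters, normalizations, array weights, an intensity trend, a replicate block and leaving out each array; a myeloid covariate and leaving out 2 arrays together were added after seeing the data.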

Additional observations from a re-analysis of the deposited data

Results flagged for a closer look

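Within the 6 diet arrays, 1 array lay far from the others for 13 of 156 genes and marker levels checked. Its gap to the nearest neighbour, as a share of the whole range, passed Dixon's 95% limit. Chance puts about 1 in 20 sets of 6 past this mark when all 6 come from 1 normal distribution. The diet arrays were 2 groups with unlike spread (mean variance 0.330 in WSD and 0.0411 in WSD+T), so this rate need not hold here. WSD replicate 3 was low for S100A2 (gap 0.705 of the range) and E2F8 (0.631) and high for INHA (0.648) and SQLE (0.648). WSD replicate 3 was also low in the mean level of myeloid markers (0.767), of T, NK and B cell markers (0.725) and of oocyte markers (0.632), and high in that of surface epithelium and mesothelium markers (0.817). WSD replicate 2 was low for NR5A2 (0.776), GATA4 (0.756), ESR2 (0.664) and HSD17B1 (0.646), and WSD+T replicate 2 was high for OIP5 (0.639).

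The change from control differed between WSD+T and WSD by the test of that difference for 11 genes (log2 WSD+T minus WSD): OSM 2.82, LUM 2.89, LOC720054 1.28, TNFAIP2 0.94, IL1RAPL1 0.93, MMACHC 0.82, CHEK1 0.75, NEDD9 -0.95, FAM89A -0.99, HSD3B2 -1.21 and NFATC2 -3.21. The values per array stand beside each gene above, and each of these calls came from the fit of all 9 arrays. The 8 genes called in both contrasts met a naming rule that required this call, so their place here was fixed in advance. Among all 10002 genes tested, 285 (2.85%) were called between the diet groups.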

How the results depend on the processing

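The main counts were 295 probe sets higher and 715 lower on the diet and 789 between WSD+T and WSD. Under a fit of 3 group means with the average of both diet groups set against control, 838 were higher and 1530 lower, including all 1010. Array weights per group gave 1247 and 1321 (51.4% lower), averaging WSD+T replicates 1 and 3 gave 88 and 364, and leaving out WSD replicates 2 and 3 together, chosen after seeing the data, gave 1418 and 1137. A filter at the 75th percentile gave 385 lower. With the replicate number as a block (replicate block) 66 were higher, 290 lower and 1 was called between WSD+T and WSD. Residuals of samples with the same number correlated between -0.302 and 0.190. With 3 arrays a group these values cannot decide whether the numbers pair the samples, and the labels name no pairing. Leaving out 1 array gave 22 to 1544 higher, 145 to 1196 lower and 0 to 1548 between the diet groups. Between WSD+T and WSD, 9 were called from the 6 diet arrays alone and 0 with WSD+T replicates 1 and 3 averaged. Pseudocounts, no filter, median centring, quantile and cyclic loess normalization and an intensity trend kept the diet counts within 1.5-fold of the main ones, as did the myeloid covariate. Among the named genes, the sign turned for these, none of them called in the main analysis: PGR (-0.075 with array weights, -0.032 without WSD replicates 2 and 3, -0.0092 to 0.18 with 1 array left out), AMHR2 (0.071 with array weights), STAR (-0.0079 with the myeloid covariate, -0.059 to 0.26 with 1 array left out), BMP15 (-0.26 with that covariate), IGF1R (-0.10 to 0.19 with 1 array left out) and CDK1 (0.016 with that covariate, -0.75 to 0.15 with 1 array left out). The causes were not tested. With 3 arrays a group, their number limits the precision, and a probe set near the filter level has little signal to fall from.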
